A study of Mus musculus with 4 samples.

Results

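Alad, Wdfy1, Sp140 and Xlr are 4 genes whose transcript level differed with Ccr2 genotype in several classes of dystrophic muscle cells. They were chosen from these same libraries for that difference, by gene symbol, out of the 32285 genes counted. Their genotype ratios are therefore a description and no test of anything.

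The cells are the mononuclear fraction of quadriceps and diaphragm from mice aged 14 weeks. They were prepared with the 10x Genomics 3′ kit, in which a unique molecular identifier (UMI) marks each captured RNA molecule. All animals carried mdx5cv, a mutation that removes full-length dystrophin and models Duchenne muscular dystrophy. The mdx5cv quadriceps and the mdx5cv diaphragm library carried intact Ccr2, and the mdx5cv/Ccr2-/- quadriceps and the mdx5cv/Ccr2-/- diaphragm library lacked it. Ccr2 encodes the chemokine receptor by which classical monocytes enter tissue. There was 1 library per group, so differences between genotypes or muscles could not be set against a spread of replicates, and no p-values are printed. The sources used here give neither the number of animals in a library, nor the Ccr2 allele, nor the genetic background of either line. Where 4 values are listed, the pair for the quadriceps precedes the pair for the diaphragm, and in each pair mdx5cv precedes mdx5cv/Ccr2-/-.

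The 4 libraries held between 50145309 and 76427446 UMIs in the 28569 cells kept, with medians of 5857 to 8962 UMIs per cell, and any pair of them shared 7 to 21 cell barcodes. Ccr2 itself stood at 253, 15.5, 137 and 8.55 CPM (the UMIs of a gene scaled to the total UMIs of the cells summed) over all cells. The libraries labelled Ccr2-/- thus held 16.3-fold and 16.0-fold less of it, and whether the remaining UMIs lie outside the deleted part was not tested. Classes were gated by marker UMIs. To be gated, a kept cell needed at least 3 markers and 4 marker UMIs of a class, with 75% of all its marker UMIs from that class. Cells that met no gate made up 24.2%, 26.2%, 34.4% and 33.5% of those kept and are part of the values over all cells. They held 37.2%, 37.8%, 46.8% and 47.5% of the Alad UMIs. Macrophages (1057, 833, 1656 and 429 cells), FAP/fibroblasts (fibro-adipogenic progenitors and fibroblasts; 604, 527, 4036 and 2262) and endothelial cells (1304, 2263, 882 and 842) each had at least 100 cells in every library and are called large classes. A further 5 classes had at least 20 cells in every library: dendritic cells, T cells, mural cells (pericytes and smooth muscle), muscle stem cells and tenocytes. All 8 macrophage markers had UMIs in the macrophage-gated cells of each library, with summed levels of 11522 to 15912 CPM.

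The 4 genes belong to unrelated pathways. Alad encodes aminolevulinate dehydratase, an early enzyme of haem synthesis that joins aminolevulinic acid molecules into porphobilinogen, and every nucleated cell uses it. Wdfy1 encodes a protein with a FYVE domain, which binds a lipid of early endosomes, and WD repeats, and it is known as an adaptor that helps bring TRIF to the receptors TLR3 and TLR4. Sp140 encodes a chromatin reader of the SP100 family of nuclear body proteins, found mainly in white blood cells and known in mice to restrain type I interferon responses. Xlr, the founding member of the X-linked lymphocyte-regulated family, encodes a nuclear protein related to the meiotic protein SYCP3. It is known from lymphoid cells and germ cells.

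Alad (ENSMUSG00000028393) lies on chromosome 4 from 62509169 to 62519918 on the minus strand, and Xlr (ENSMUSG00000054626) on chromosome X from 53777118 to 53797706 on the minus strand. Wdfy1 (ENSMUSG00000073643) spans 79702262 to 79776143 on the minus strand of chromosome 1 and overlaps Mrpl44 on the opposite strand. Sp140 (ENSMUSG00000070031) spans 85600378 to 85645037 on the plus strand of the same chromosome, with Sp110 starting 1561 bases before it on the opposite strand (positions in GRCm38 from GENCODE M21). The 300 bases around the RefSeq start (GRCm38.p6) were read for the 3 of the 4 genes with an entry, and for Sp110, which differed together with Sp140. They are shown because Sp140 and Sp110 differed together and their GENCODE starts lie side by side, so that a reader can set their windows against those of Alad and Xlr. Counts of 3′ ends do not show which start was used, and whether the starts bear on the difference was not tested. The Sp140 window lies downstream of the GENCODE start given above. Alad and Sp110 each have 1 more RefSeq start, whose window is not printed. That of Alad held 60% G and C and 2 GC boxes. That of Sp110, at 85603842 to 85604141 within Sp140, held no GC box and 1 GATA site. Capitals mark matches, on either strand, to a CCAAT box (CCAAT), a GC box (GGGCGG), an E-box (CACGTG), an interferon-stimulated response element (GAAA, any 2 bases, GAAA), a PU.1 site (GAGGAAGT) or a GATA site (AGATAA).
Alad, chr4:62519860-62520159, minus strand: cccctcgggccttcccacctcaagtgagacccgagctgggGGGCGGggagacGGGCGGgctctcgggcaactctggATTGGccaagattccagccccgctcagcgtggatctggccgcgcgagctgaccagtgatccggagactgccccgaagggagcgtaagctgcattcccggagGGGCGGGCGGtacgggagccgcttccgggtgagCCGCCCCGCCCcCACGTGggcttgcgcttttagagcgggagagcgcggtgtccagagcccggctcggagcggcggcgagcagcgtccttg
Sp140, chr1:85600453-85600752, plus strand: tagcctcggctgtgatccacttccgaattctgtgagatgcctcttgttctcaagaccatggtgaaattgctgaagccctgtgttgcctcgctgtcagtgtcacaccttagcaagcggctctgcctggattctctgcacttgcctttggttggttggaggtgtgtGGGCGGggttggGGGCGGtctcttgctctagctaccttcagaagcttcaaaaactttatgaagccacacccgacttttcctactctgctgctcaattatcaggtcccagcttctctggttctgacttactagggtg
Sp110, chr1:85598761-85599060, minus strand: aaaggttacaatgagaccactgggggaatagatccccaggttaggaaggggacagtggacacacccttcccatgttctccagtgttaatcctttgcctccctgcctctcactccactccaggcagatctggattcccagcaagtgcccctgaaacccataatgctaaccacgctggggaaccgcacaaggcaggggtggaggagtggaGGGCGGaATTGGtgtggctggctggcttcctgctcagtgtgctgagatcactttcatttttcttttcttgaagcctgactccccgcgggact
Xlr, chrX:53797657-53797956, minus strand: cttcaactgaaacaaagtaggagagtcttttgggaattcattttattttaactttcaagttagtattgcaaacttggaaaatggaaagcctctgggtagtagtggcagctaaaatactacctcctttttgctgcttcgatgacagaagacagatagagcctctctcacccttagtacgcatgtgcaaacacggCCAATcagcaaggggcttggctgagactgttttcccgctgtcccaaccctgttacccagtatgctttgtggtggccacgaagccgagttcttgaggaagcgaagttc
The printed Alad window held 71.3% G and C with 33 CpG dinucleotides, 6 GC boxes (of which 2 pairs overlap), 1 CCAAT box and 1 E-box. Sp140 had 52.0% G and C, 7 CpG dinucleotides and 2 GC boxes, Sp110 1 GC box and 1 CCAAT box, and Xlr 45.7% G and C and 1 CCAAT box. None of the 4 printed windows held the interferon element, which occurred in 3.44% of 32851 promoters of the same length, or the PU.1 site (3.2%). GC boxes occurred in 35.7%, CCAAT boxes in 37.4%, E-boxes in 7.15% and GATA sites in 11.2% of them. These matches describe letters in the window and no binding.

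The 3′ ends that this kit reads differ in how unique they are. Of the windows of 60 bases in the last 500 bases of the annotated transcripts, 0% of those of Alad and Wdfy1 occurred in another gene's transcripts, against 25.7% for Sp140 and 18.5% for Xlr. Counts of Sp140 and Xlr are uncertain in this respect, since reads could be split with, or lost to, their copies. These are shares of annotated sequence and not of reads or UMIs, so they do not give the size of an error in the counts. Among the copies of Sp140 that the matrices count, C130026I21Rik stood at 12.1, 3.99, 10.3 and 6.08 CPM in macrophage-gated cells and A530032D15Rik at 3.60, 2.40, 7.52 and 3.36 CPM, both lower where Sp140 was higher. Of the copies of Xlr counted, 3830403N18Rik had 0, 25, 2 and 8 UMIs in macrophages and Gm5934 had none. Mrpl44, which overlaps Wdfy1, was at 15.9, 15.4, 12.4 and 11.0 CPM over all cells, a pattern unlike that of Wdfy1.

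**Figure D1:**
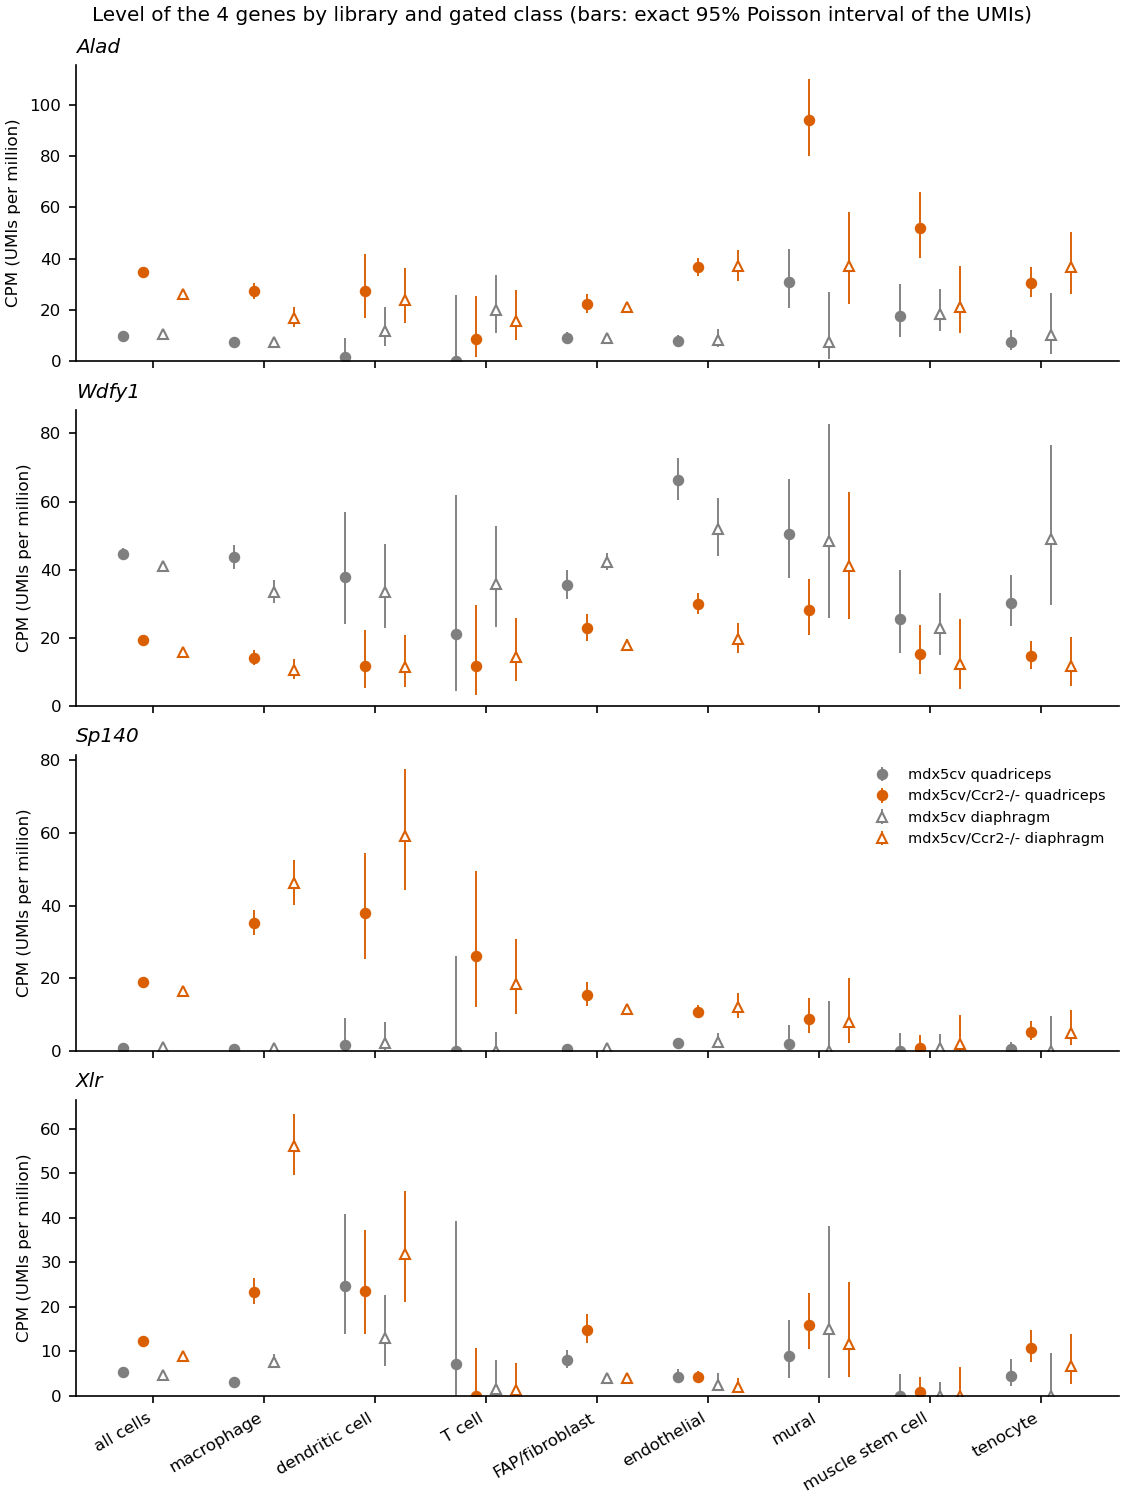
Level of each gene in CPM (vertical axis, linear) by gated class (horizontal axis) in the 4 libraries; circles are quadriceps, triangles diaphragm, grey mdx5cv and orange mdx5cv/Ccr2-/-, and bars are exact 95% Poisson intervals of the UMIs, counting error only. Alad and Wdfy1 differ by genotype across classes, Sp140 is near 0 in grey, and the highest Xlr value is in macrophages of the mdx5cv/Ccr2-/- diaphragm (56.2 CPM).

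Alad was higher without Ccr2 in every large class of both muscles. Over all cells it had 494, 2054, 823 and 1585 UMIs, or 9.85, 34.8, 10.8 and 26.3 CPM. Of the 2 mdx5cv/Ccr2-/- values, the quadriceps value was the higher. Dividing mdx5cv/Ccr2-/- by mdx5cv gave a quadriceps ratio of 3.53 (exact conditional binomial 95% interval 3.20 to 3.91) and a diaphragm ratio of 2.44 (2.24 to 2.66). Here and below these intervals cover counting error only, take UMIs as independent and leave out all variation between animals and libraries. Of 6242 genes measured over all cells (mean of at least 20 CPM and at least 50 UMIs), 0.032% were at least 2-fold higher in both muscles on the scale of CPM + 5. Alad missed that count in the diaphragm, with log2 ratios of 1.42 and 0.99 on this scale, which understates the ratio of low genes.

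Endothelial cells had the largest Alad ratios of the large classes. Their levels were 7.93, 36.7, 8.33 and 37.1 CPM, with nearly equal values in the muscles within each genotype. Their quadriceps ratio was 4.63 (3.49 to 6.24), their diaphragm ratio 4.46 (2.88 to 7.17), and Alad was the 1 gene among 5998 measured in endothelial cells (0.0167%) that was at least 2-fold higher on this scale in both muscles. It reached the minimum there through the libraries without Ccr2, and since it was chosen for this difference the count supports nothing. In macrophages Alad stood at 7.33, 27.3, 7.61 and 17.0 CPM, with ratios of 3.73 (2.99 to 4.69) and 2.23 (1.64 to 3.04). In FAP/fibroblasts it stood at 9.14, 22.2, 9.02 and 21.04 CPM, with ratios of 2.43 (1.82 to 3.27) and 2.33 (1.99 to 2.74). Its log2 ratios there, 0.94 and 0.89, were short of 2-fold, which 0.0172% of 5828 measured genes passed upward in both muscles. Within mdx5cv the 3 large classes were thus alike in level (7.33 to 9.14 CPM), and in each muscle without Ccr2 endothelial cells lay above the other large classes. With each cell thinned to 2000 UMIs, 1.86% (1.25 to 2.66) and 2.91% (1.51 to 5.03) of diaphragm macrophages had an Alad UMI, so these intervals overlapped. The intervals of the other large-class comparisons did not.

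The smaller classes reached the highest Alad levels and show where the genotype difference was not seen. Mural cells of the mdx5cv/Ccr2-/- quadriceps had 94.3 CPM (161 UMIs) against 30.7 in mdx5cv, and their ratios were 3.07 (2.08 to 4.66) and 4.99 (1.20 to 44.1). Muscle stem cells came next in the quadriceps without Ccr2, at 52.1 CPM, where the intervals of the ratios from mural to muscle stem cells and from those to endothelial cells both lay above 1. In the diaphragm of this genotype no neighbouring classes in the order from mural cells (37.2 CPM) to T cells (15.8 CPM) differed beyond counting error. Tenocytes, the cells of tendon, had ratios of 3.98 (2.37 to 7.08) and 3.56 (1.28 to 13.7). Muscle stem cells of the diaphragm, at 18.6 and 21.3 CPM, gave 1.15 (0.518 to 2.42), and T cells of the diaphragm, at 20.03 and 15.8 CPM, gave 0.788 (0.333 to 1.84). Of the 16 comparisons in 8 classes, 15 were higher without Ccr2 and 12 had an interval above 1. At 2000 UMIs per cell, an Alad UMI was found in 0 of 50, 6 of 64, 2 of 102 and 0 of 62 dendritic cells. For muscle stem cells the counts were 1 of 61, 10 of 117, 5 of 103 and 2 of 52. The diaphragm shares of both classes were thus lower without Ccr2, and the intervals of each genotype pair overlapped.

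Of the 9 genes of haem synthesis, 4 were measured over all cells. Alas1, which encodes the enzyme ahead of Alad and sets the pace of the pathway, stood at 27.7, 26.3, 18.03 and 17.5 CPM. Urod, for a later decarboxylation step, stood at 19.2, 23.3, 24.4 and 23.8 CPM, and Fech, which inserts the iron, at 30.6, 31.8, 31.1 and 37.7 CPM. No measured member other than Alad was past 2-fold in both muscles in any large class or over all cells. The list median over all cells was a log2 ratio of 0.14 (quadriceps) and 0.10 (diaphragm), beside 0.08 and 0.05 for all measured genes. Among 9 genes of haem breakdown and transport, 6 were measured over all cells and 7 in macrophages, none of them past 2-fold in both muscles. Their medians were −0.16 and −0.23 over all cells, and 0.15 and −0.03 in macrophages, where 3 were higher and 2 lower in both muscles. Hmox1, the haem oxygenase, stood at 96.5, 54.0, 91.1 and 49.8 CPM over all cells. In macrophages, which were 21.3%, 13.1%, 14.8% and 7.09% of the kept cells, it stood at 216, 171, 363 and 305 CPM.

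Wdfy1 was lower without Ccr2 in all 3 large classes and both muscles. Over all cells it had 2235, 1135, 3131 and 949 UMIs, or 44.6, 19.2, 41.0 and 15.8 CPM. Its level was 2.32-fold lower in the quadriceps (ratio 0.432, 0.401 to 0.464) and 2.60-fold lower in the diaphragm (0.385, 0.357 to 0.414). On the scale of CPM + 5, 0.368% of the measured genes were at least 2-fold lower over all cells in both muscles, Wdfy1 among them at place 18.

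Macrophages had the largest Wdfy1 difference of the large classes. Their levels were 43.6, 14.2, 33.5 and 10.5 CPM, a 3.07-fold and a 3.19-fold lower level without Ccr2 (ratios 0.325, 0.272 to 0.387, and 0.313, 0.229 to 0.421). Wdfy1 was 1 of the 0.333% of 5408 genes measured in macrophages that were at least 2-fold lower in both muscles. Endothelial cells, which among the 8 larger classes had the highest level in 3 of the 4 libraries, stood at 66.5, 30.02, 52.0 and 19.5 CPM (ratios 0.452, 0.393 to 0.519, and 0.376, 0.282 to 0.496), and 0.0667% of their measured genes passed the same count. FAP/fibroblasts stood at 35.5, 22.9, 42.4 and 17.8 CPM. Their quadriceps ratio, 0.645 (0.523 to 0.794), was the nearest to 1 of the 6, against 0.420 (0.374 to 0.471) in the diaphragm. Of the genes measured in this class 0.0172% were at least 2-fold lower in both muscles, and Wdfy1, at place 8, was not among them. At 2000 UMIs per cell, 7.95% (5.90 to 10.4) and 5.13% (3.38 to 7.42) of quadriceps FAP/fibroblasts had a Wdfy1 UMI, so these intervals overlapped. The intervals of the other large-class comparisons did not.

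The direction of Wdfy1 was the same in the smaller classes, with less precision. All 16 comparisons in 8 classes were lower and 12 had an interval below 1. Dendritic cells stood at 37.9, 11.8, 33.6 and 11.4 CPM, with ratios of 0.310 (0.126 to 0.696) and 0.339 (0.148 to 0.710). Tenocytes stood at 30.2, 14.5, 49.1 and 11.6 CPM, with ratios of 0.481 (0.328 to 0.703) and 0.237 (0.105 to 0.514). Mural cells of the diaphragm were the least different, at 48.5 and 41.1 CPM (13 and 21 UMIs; ratio 0.848, 0.405 to 1.84). Muscle stem cells, at 25.7, 15.3, 22.8 and 12.4 CPM, had intervals that held 1 in both muscles.

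No measured relative or pathway gene of Wdfy1 was past 2-fold with it in macrophages. Of the 4 WDFY genes, all were measured in macrophages and Wdfy1 alone was past 2-fold in both muscles. Wdfy2, an endosomal relative with the same domains, stood there at 42.6, 43.7, 40.4 and 49.1 CPM. Wdfy3, a large scaffold of selective autophagy, stood at 68.3, 74.2, 55.6 and 91.9 CPM, and Wdfy4, which dendritic cells need for cross-presentation, at 24.2, 27.4, 28.9 and 32.7 CPM. These 3 were above their mdx5cv level in macrophages of both muscles. Over all cells Wdfy2 was lower in both, at 26.9, 22.7, 27.3 and 26.7 CPM. Of 10 genes from TLR3 and TLR4 to TRIF signalling, 5 were measured in macrophages and none was past 2-fold in both. Tlr4, the receptor for bacterial lipopolysaccharide, stood at 35.7, 37.9, 35.8 and 45.3 CPM, and Ticam2, which bridges TLR4 to TRIF, at 27.2, 25.4, 27.7 and 29.4 CPM. The median of the 5 was −0.07 and 0.09 on the log2 scale, beside 0.07 and 0.05 for all genes measured in macrophages. Of 8 early endosome genes, 5 were measured in macrophages with medians of −0.01 and 0.34, and the tether gene Eea1 stood at 93.8, 118, 91.8 and 117 CPM.

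**Figure D2:**
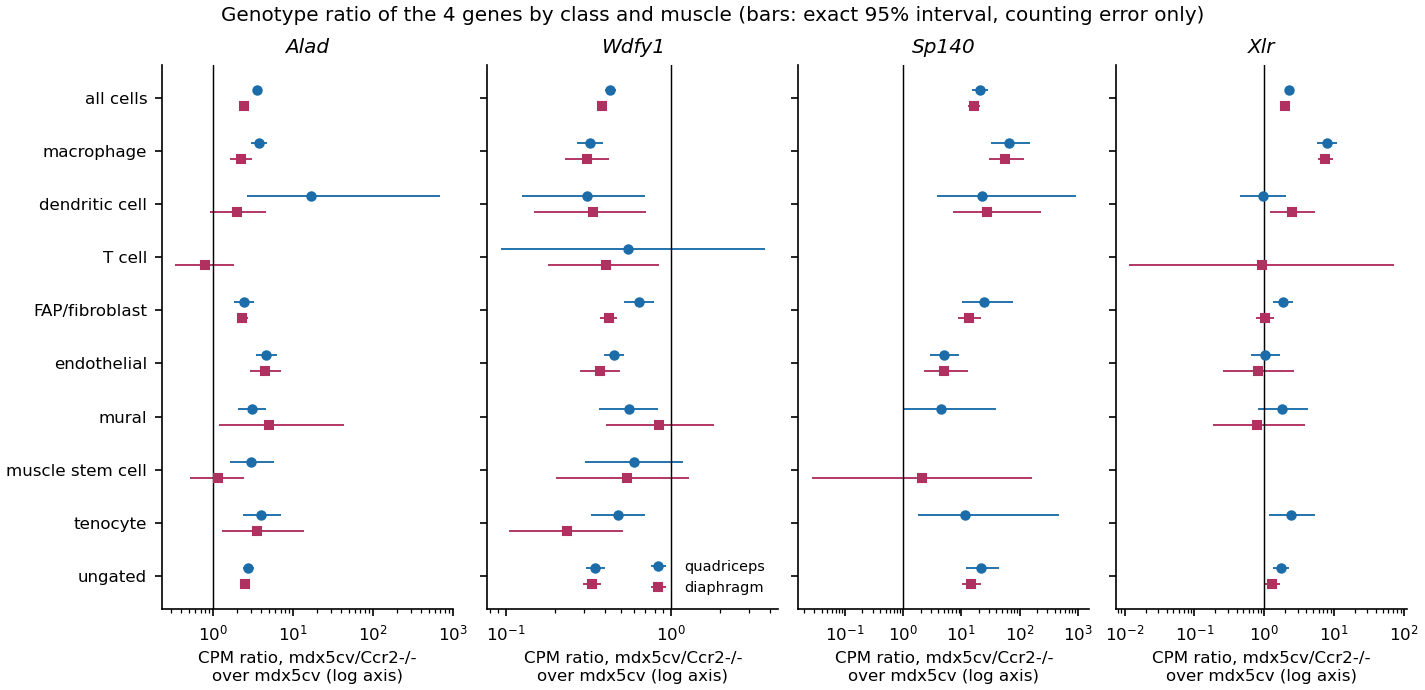
Ratio of CPM, mdx5cv/Ccr2-/- over mdx5cv (horizontal log axis, which differs between panels), by class for quadriceps (circles) and diaphragm (squares), with exact conditional 95% intervals, counting error only; comparisons with 0 UMIs in a library are left out. Alad lies above 1 and Wdfy1 below 1 in nearly all classes, and Xlr lies far above 1 in macrophages but near 1 in endothelial cells.

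Sp140 was near its detection limit with Ccr2 and readily counted without it. Over all cells it had 46, 1122, 77 and 1001 UMIs, or 0.917, 19.0, 1.01 and 16.6 CPM, which is 20.7-fold (15.4 to 28.5) more in the quadriceps without Ccr2 and, for the diaphragm, 16.5-fold (13.1 to 21.1). Macrophages had the largest ratios of the large classes. They held 8, 397, 10 and 220 Sp140 UMIs, which is 0.543, 35.2, 0.827 and 46.1 CPM. The groups were far apart, with ratios of 64.9 (32.6 to 151) and 55.8 (29.8 to 118). In macrophages 0.518% of measured genes were at least 2-fold higher in both muscles on the scale of CPM + 5, and Sp140, with log2 ratios of 2.86 and 3.13, was among them by the way it was chosen.

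Sp140 was also higher without Ccr2 in the other large classes, at lower levels. FAP/fibroblasts stood at 0.618, 15.4, 0.859 and 11.4 CPM (ratios 24.9, 10.3 to 78.4, and 13.3, 8.61 to 21.6), and endothelial cells at 2.16, 10.7, 2.43 and 12.1 CPM (4.97, 2.90 to 9.12, and 4.99, 2.25 to 13.1). The mdx5cv level was higher in endothelial cells than in macrophages of both muscles, and the order was opposite without Ccr2. Sp140 was under the minimum for a measured gene over all cells, in FAP/fibroblasts and in endothelial cells, and it passed in macrophages through the libraries without Ccr2.

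Among the smaller classes Sp140 without Ccr2 was highest in white blood cells and close to 0 in muscle stem cells. Dendritic cells had 1, 29, 2 and 52 UMIs (1.65, 37.9, 2.16 and 59.2 CPM). Their level did not differ from that of macrophages beyond counting error within either library without Ccr2. T cells had 0, 9, 0 and 14 UMIs, at least 1.24-fold and at least 4.29-fold higher when the 0 is taken as 3 counts per library. The exact intervals of these ratios, which take the 0 as it is, start at 0.814 and 3.05, so the quadriceps difference was within counting error. In classes too small to be compared throughout, neutrophils of the quadriceps had 0 and 38 UMIs (at least 10.1-fold higher on the same floor, interval from 7.78) and B cells of the quadriceps 0 and 16 (at least 3.43-fold, interval from 2.48). Muscle stem cells had 0, 1, 1 and 1 UMIs in 64, 124, 108 and 54 cells. By sign all 16 comparisons in 8 classes were higher, those resting on 1 to 5 UMIs included, and 11 had an interval above 1.

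The share of cells with an Sp140 UMI followed the summed levels. With each cell thinned to 2000 UMIs and shallower cells left out, 0.0985% (1 of 1015 cells), 5.59% (45 of 805), 0.192% (3 of 1559) and 7.77% (32 of 412) of macrophages had one. The exact binomial 95% intervals were 0.00249 to 0.548, 4.11 to 7.41, 0.0397 to 0.561 and 5.37 to 10.8%. Unthinned, at median depths of 12784, 11388, 6806 and 9950 UMIs, the shares were 0.662%, 32.4%, 0.604% and 33.8%. Muscle stem cells, in which Sp140 was close to 0, had an unthinned share of 0%, 0.806%, 0.926% and 1.85% at median depths of 5816, 5813, 6288 and 6552.5 UMIs. These shares rest on at most 1 UMI per library. The thinned intervals of the muscle stem cells reached up to 5.87, 3.10, 3.52 and 10.3%. They are too wide to set a background for the macrophages.

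Within the SP100 family Sp110, the neighbour of Sp140, showed the same pattern, and Sp100 did not. Sp110 encodes a nuclear body protein of the same family. Over all cells it had 11, 1319, 25 and 1160 UMIs, or 0.219, 22.4, 0.327 and 19.3 CPM. Its macrophage levels were 0.339, 31.1, 0.248 and 35.7 CPM, with ratios of 91.8 (39.0 to 284) and 144 (48.4 to 704). In endothelial cells Sp110 had 0, 382, 0 and 129 UMIs, at least 71.9-fold and at least 30.7-fold higher without Ccr2 with the 0 taken as 3 counts per library (intervals from 58.2 and 24.6). These are more UMIs than Sp140 had there. Muscle stem cells had no Sp110 UMI in any library. Sp100, which gave the family its name and lies 49.6 kb beyond the start of Sp140, stood at 119, 63.2, 137 and 87.5 CPM in macrophages, with ratios of 0.531 (0.486 to 0.580) and 0.640 (0.574 to 0.713). In endothelial cells Sp100 was at 171, 166, 135 and 145 CPM. Aire, a further family member that acts in the thymus, had 0, 0, 2 and 4 UMIs over all cells.

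Of 9 genes of PML nuclear bodies, the compartments in which SP100 proteins gather, 7 were measured in macrophages and none was past 2-fold in both muscles, with medians of 0.16 and 0.03. The interferon response list, which holds genes that type I interferon induces and genes that relay its signal, stood the other way from Sp140. Of its 15 genes 12 were measured in macrophages, and 5 of these were at least 2-fold lower in both muscles, beside the 0.333% of all genes given above. All 12 were lower in both by some amount. The share of all genes measured in this class that were so was not counted, and the direction is only described. The list median was −1.22 (quadriceps) and −0.76 (diaphragm), beside 0.07 and 0.05 for all genes measured in macrophages. Irf7, which amplifies interferon production, stood at 89.6, 33.2, 83.9 and 26.4 CPM, and the ubiquitin-like modifier Isg15 at 110, 37.4, 109 and 45.9 CPM. In FAP/fibroblasts the median was −0.08 and −0.11 with none of 10 measured genes past 2-fold, and in endothelial cells −0.20 and −0.09 with none of 13. In these classes 5 of the 10 and 8 of the 13 were lower in both muscles, and 1 and 2 were higher in both, again with no such share of all measured genes counted. The medians of all measured genes were 0.07 and 0.03 in FAP/fibroblasts and 0.06 and 0.01 in endothelial cells.

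Xlr differed by genotype mainly in macrophages. Its macrophage UMIs were 44, 264, 92 and 268, or 2.99, 23.4, 7.61 and 56.2 CPM. Without Ccr2 the quadriceps level was 7.84-fold (5.68 to 11.1) and the diaphragm level 7.39-fold (5.81 to 9.47) that of mdx5cv. Xlr was also higher in the diaphragm than in the quadriceps within each genotype, 2.55-fold (1.76 to 3.74) in mdx5cv and 2.40-fold (2.02 to 2.86) without Ccr2. Its log2 ratios of CPM + 5 were 1.83 and 2.28. Xlr too was measured in macrophages through the libraries without Ccr2, so its place within the 0.518% given above follows from how it was chosen.

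In the other large classes the genotype ratio of Xlr was smaller than in macrophages. Endothelial cells stood at 4.18, 4.31, 2.43 and 1.98 CPM, with ratios of 1.03 (0.644 to 1.68) and 0.815 (0.258 to 2.64). Both intervals end below the ratios found in macrophages. FAP/fibroblasts stood at 8.03, 14.9, 3.98 and 4.03 CPM, so that the quadriceps ratio was 1.85 (1.33 to 2.59) and the diaphragm ratio 1.01 (0.756 to 1.36). In these stromal cells the quadriceps was above the diaphragm, the reverse of the order in macrophages. Over all cells Xlr was at 5.32, 12.2, 4.58 and 9.03 CPM, under the minimum for a measured gene, and in the diaphragm without Ccr2 macrophages supplied 49.3% of its UMIs while they were 7.09% of the cells.

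Dendritic cells carried Xlr in both genotypes. They stood at 24.7, 23.5, 13.0 and 31.9 CPM from 15, 18, 12 and 28 UMIs, with ratios of 0.951 (0.453 to 2.03) and 2.45 (1.21 to 5.30). In the mdx5cv quadriceps their level was above that of the next class beyond counting error. In the quadriceps without Ccr2, at 23.5 and 23.4 CPM, it did not differ from that of macrophages, and in the diaphragm without Ccr2 macrophages lay above dendritic cells. Tenocytes had 10, 38, 0 and 7 UMIs (quadriceps ratio 2.40, 1.17 to 5.41). T cells had 1, 0, 1 and 1 UMIs and muscle stem cells 0, 1, 0 and 0. In the quadriceps T cells and B cells together gave 1 Xlr UMI with Ccr2 and 0 without it. Of the 16 comparisons in 8 classes 10 were higher, 5 were lower and 5 had an interval above 1.

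The share of macrophages with an Xlr UMI at 2000 UMIs per cell was 0.690% (7 of 1015), 4.10% (33 of 805), 1.86% (29 of 1559) and 9.71% (40 of 412), in the same order as the levels, with intervals of 0.278 to 1.42, 2.84 to 5.71, 1.25 to 2.66 and 7.03 to 13.0%. Unthinned the shares were 1.99%, 11.5%, 3.56% and 28.0%, against 0%, 0.806%, 0% and 0% of muscle stem cells. Of the 14 genes of the XLR and SYCP3 family, 13 were counted and Xlr alone was measured in macrophages. Xlr4b, from another X-linked cluster of the family, came next at 4.07, 7.27, 4.55 and 6.08 CPM, and Xlr3b was at 0.814, 0.887, 1.24 and 1.26 CPM. Xlr5a, Xlr5b and Xlr5c had 0 UMIs in all libraries.

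**Figure D3:**
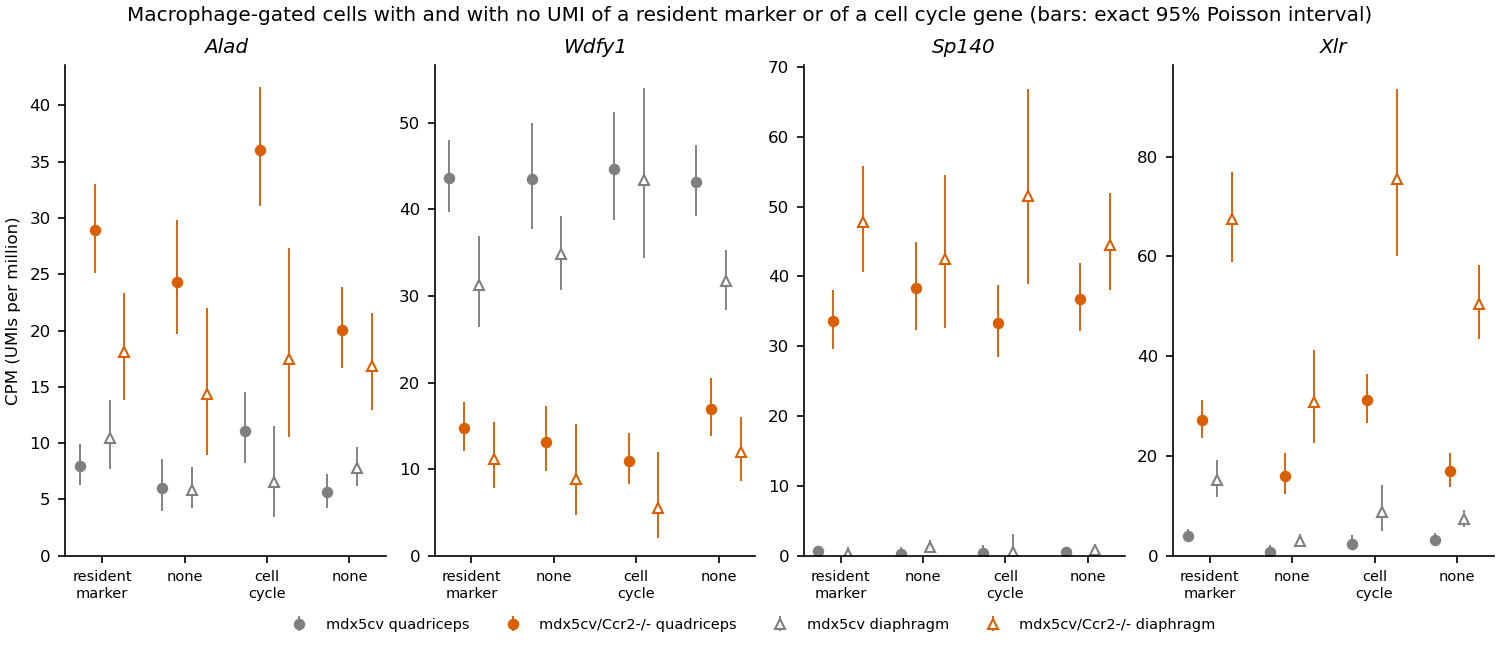
Level in CPM (vertical axis, linear, scaled per panel) of each gene in macrophage-gated cells split by whether a cell held a UMI of a resident marker or of a cell cycle gene, in the 4 libraries (circles quadriceps, triangles diaphragm, grey mdx5cv, orange mdx5cv/Ccr2-/-), with exact 95% Poisson intervals. Within each split the genotypes differ in the same direction as in all macrophages. The Alad bars overlap in diaphragm cells with a cell cycle UMI (12 and 19 UMIs) and about meet in those with a resident marker (48 and 60 UMIs). Xlr is higher in cells with a resident marker in all 4 libraries.

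The macrophages compared were not the same mix of cells in both genotypes. Cells with a UMI of the resident markers Folr2, Lyve1, Cd163 or Timd4 made up 58.3%, 63.5%, 37.5% and 69.9% of macrophage-gated cells, and cells with a UMI of the cell cycle genes Mki67, Top2a, Birc5, Cenpf or Ube2c 23.9%, 33.5%, 10.7% and 16.1%. The summed level of 5 classical monocyte markers was 236, 32.7, 222 and 28.7 CPM in macrophage-gated cells, that of 6 B cell markers 12.3, 3.19, 21.1 and 5.03 CPM, and that of 6 T cell markers 0.814, 2.48, 3.64 and 6.92 CPM. The 7 mural markers summed to 7.80, 42.8, 8.43 and 9.44 CPM there. The part of the cells or free RNA behind these markers in the ratios was not tested. Splits of the macrophages, chosen after the values were seen, gave Xlr ratios of 6.85 and 4.43 (quadriceps and diaphragm) among cells with a resident marker and 18.8 and 10.5 among cells without one. Among cells with a cell cycle UMI they were 13.1 and 8.59, and among the rest 5.20 and 6.83. Every one of these intervals lay above 1, the lowest bound being 3.37.

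Xlr itself was higher in macrophages with a resident marker than in those without, in each library: 4.66-fold (1.69 to 17.9), 1.70-fold (1.27 to 2.30), 5.19-fold (3.18 to 8.80) and 2.18-fold (1.58 to 3.08). Deeper cells are more likely to show a marker UMI, so this split also follows depth. Sp140 did not differ in this way: its contrasts without Ccr2 were 0.878 (0.713 to 1.08) and 1.12 (0.832 to 1.53). Sp140 ratios stayed at 35.4 or more in every split, although 1 to 9 UMIs stood in each mdx5cv group. Alad ratios ranged from 1.74 to 4.07 and Wdfy1 ratios from 0.127 to 0.392 over the same splits. Alad was higher in quadriceps macrophages with a cell cycle UMI than in the rest in both genotypes, 1.96-fold (1.32 to 2.92) with Ccr2 and 1.80-fold (1.43 to 2.28) without it, and not beyond counting error in the diaphragm.

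**Figure D4:**
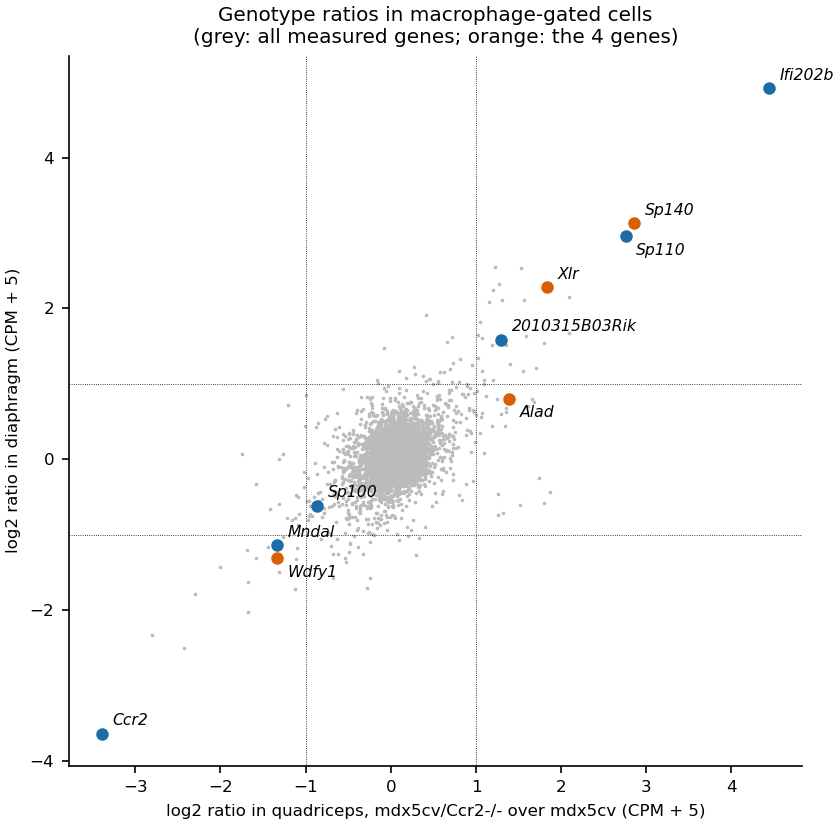
log2 ratio (CPM + 5, mdx5cv/Ccr2-/- over mdx5cv) in macrophage-gated cells of the quadriceps (horizontal axis) and the diaphragm (vertical axis) for the 5408 measured genes (grey), with the 4 genes in orange and 6 genes named in the text in blue; dotted lines mark a 2-fold difference. Alad and Sp110, under the minimum in macrophages, are drawn as well; Sp140 and Xlr lie beyond 2-fold in both muscles with few other genes, and Wdfy1 lies beyond 2-fold below.

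Alad and Wdfy1 were chosen for differing one way across the large classes, and Sp140 and Xlr for their difference in macrophages. Sp140 also differed one way in all 3 large classes and both muscles, as Alad and Wdfy1 did. Among 7823 genes measured in at least 1 large class, 7.64% were higher by any amount in all 6 comparisons, 2.2% were lower, 0.0256% (2 genes) were at least 2-fold higher in all 6 and none was at least 2-fold lower. Ordered by the smallest of the 6 log2 ratios, the highest genes were Ifi202b (smallest 2.35), Sp140 (1.14), Alad (0.80) and 2010315B03Rik (0.54). The lowest were the guanylate-binding protein gene Gbp3 (lower by at least 0.60), Wdfy1 (by at least 0.54) and Mndal (by at least 0.47), an Ifi200 family gene. Next came Cd200 (0.31) among the higher genes and Gbp5 (lower by at least 0.45) among the lower ones. Xlr was not in this order, since it was below 1 in endothelial cells of the diaphragm. Sp140 and Alad entered the order through 1 large class each, in which they were measured through the libraries without Ccr2. With genes measured in all 3 large classes alone, 3944 in number, the count past 2-fold was 0 in each direction.

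The genes whose levels were most alike over the 12 groups of library and large class were partly the same ones. Pearson correlations of log2(CPM + 5) are given as a description of these 12 groups, which share libraries. For Sp140 they were highest with 2010315B03Rik (0.90), Ifi202b (0.89), March8 (0.84), Spast (0.79) and Smim15 (0.75). For Alad they were highest with 2010315B03Rik (0.83), Ramac (0.75), Zfp277 (0.75), Sp140 (0.74) and Ifi202b (0.72). For Wdfy1 the nearest were Mndal (0.85), Ube2l6 (0.71), Gbp3 (0.70), Rpp25l (0.68) and Zfp655 (0.68). For Xlr, with its macrophage pattern, they were Psd3 (0.88), B3galnt1 (0.88), Spire1 (0.81), Prkacb (0.80) and Pias1 (0.80).

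Ifi202b, an Ifi200 family gene whose transcript is known to differ between inbred mouse strains, was counted almost solely in the libraries without Ccr2, at 1, 6087, 7 and 9136 UMIs over all cells. No other measured gene of a list of genes known for such strain differences was past 2-fold in both muscles. Of the 10 genes of that list 9 were counted and 3 were measured over all cells. Glo1, the glyoxalase, stood at 50.01, 56.8, 63.3 and 64.9 CPM, and the antiviral deaminase gene Apobec3 at 51.5, 45.9, 33.2 and 31.1 CPM. Nnt, which is deleted in part in a common inbred strain, was under the minimum at 2.33, 3.05, 2.56 and 3.07 CPM. Copy number of Alad is known as background to vary between inbred strains. Each Ccr2 genotype is represented by its own line, and the background of neither is given, so strain background and Ccr2 genotype cannot be told apart here.

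**Figure D5:**
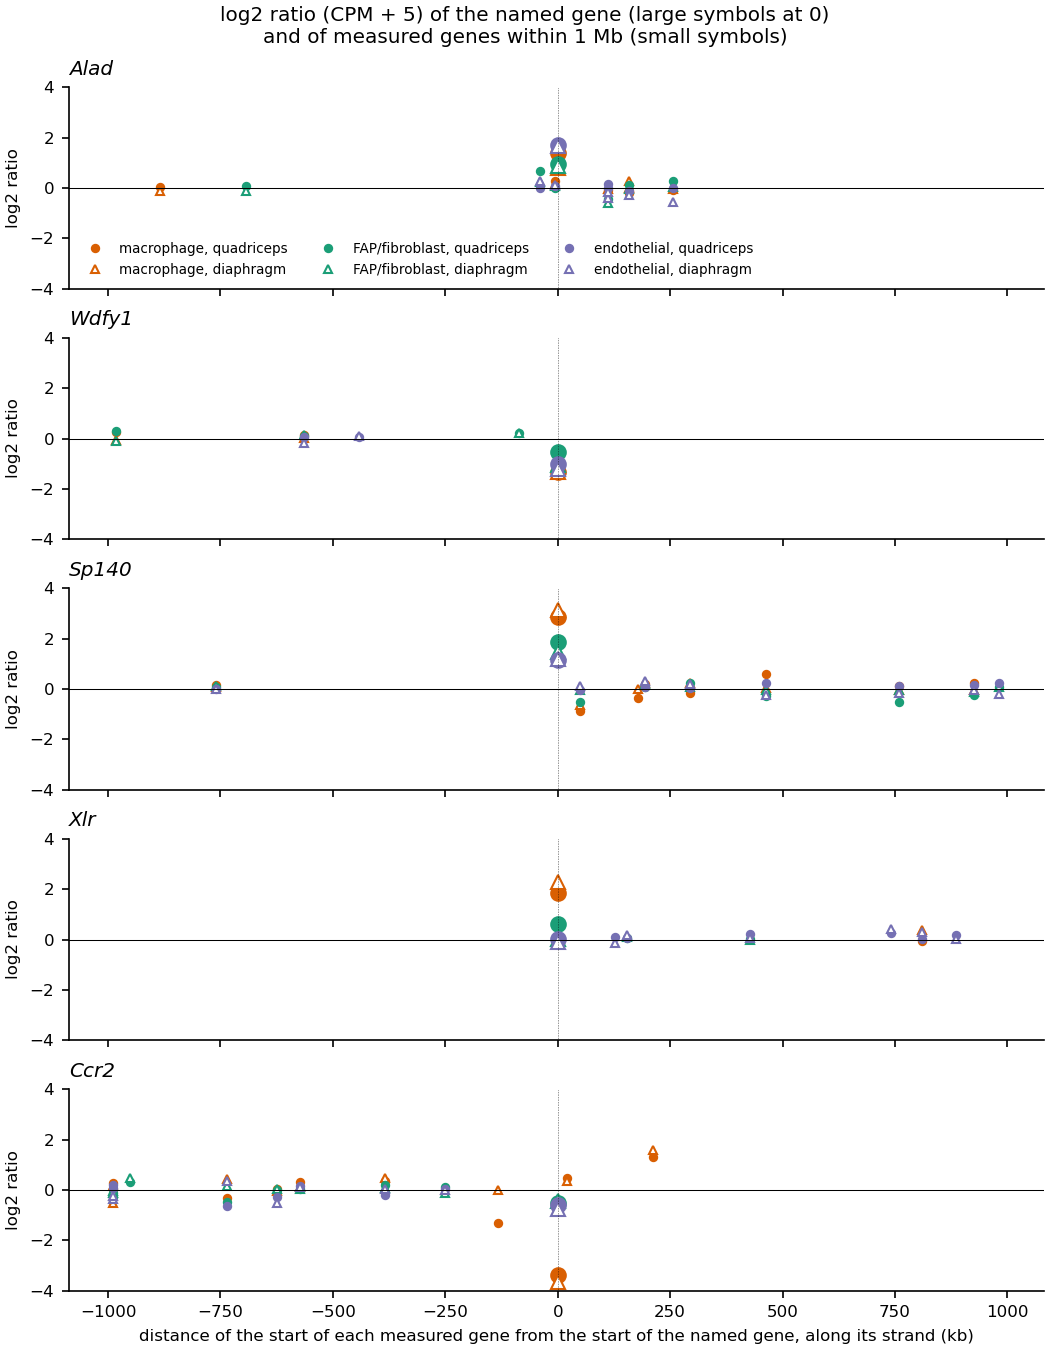
log2 ratio (CPM + 5, vertical axis) of each gene (large symbols at 0) and of the measured genes whose start lies within 1 Mb (small symbols) against distance along the gene's strand in kb, for 3 large classes (colours) in quadriceps (filled circles) and diaphragm (open triangles). The measured genes around Alad, Wdfy1, Sp140 and Xlr lie within 2-fold, and 2010315B03Rik, 211 kb from Ccr2, lies above 1 in macrophages; the neighbours Hdhd3 of Alad and Sp110 of Sp140, under the minimum, are not drawn.

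Among the genes around each of the 4, Hdhd3 and Sp110, both too low to be measured, differed in the same direction as their neighbour in all 3 large classes and both muscles. They were picked from all genes around the 4 after their values were seen. Of the measured genes 7.64% were higher by any amount in all 6 comparisons. No such share was counted for genes under the minimum, so Hdhd3 and Sp110 are only described. Hdhd3, a haloacid dehalogenase family gene 16.5 kb beyond Alad, stood at 1.85, 6.49, 2.58 and 6.87 CPM over all cells. Its log2 ratios of CPM + 5 (quadriceps, then diaphragm) were 0.45 and 0.19 in macrophages, 0.71 and 0.71 in FAP/fibroblasts and 0.53 and 0.16 in endothelial cells. Those of Sp110, 1.56 kb before Sp140, ranged from 1.83 to 2.95. Within 1 Mb of the start of Alad 9 of 36 genes were measured in at least 1 large class, around Wdfy1 4 of 15, around Sp140 9 of 40 and around Xlr 6 of 19. None of these was past 2-fold in either muscle of a large class in which it was measured, beside 2.83% of all 7823 measured genes, and the neighbours are too few to be set apart from that share. Pole3, which starts 5.15 kb before Alad, stood at 36.0, 40.3, 35.1 and 37.9 CPM over all cells. Slc31a1, a copper transporter gene 159 kb beyond Alad, stood at 25.3, 23.9, 21.7 and 19.3 CPM. Serpine2, 85.0 kb before Wdfy1, stood at 98.6, 131, 61.7 and 77.2 CPM, and Cul3, 564 kb before it, at 81.5, 93.0, 74.9 and 82.5 CPM. Around Sp140, Cab39 (193 kb beyond it) stood at 67.4, 69.6, 53.1 and 57.8 CPM and Itm2c at 157, 164, 171 and 195 CPM. Around Xlr, Hprt, of purine salvage, stood at 51.4, 41.1, 30.2 and 29.7 CPM. C430049B03Rik, a transcript 741 kb beyond Xlr that was measured in endothelial cells alone, was at 16.7, 35.8, 7.03 and 8.93 CPM over all cells, with a log2 ratio of 1.68 in FAP/fibroblasts of the quadriceps, where it was under the minimum.

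Around Ccr2, 2 of 11 measured genes were past 2-fold in at least 1 such comparison. One was Ccr1, 133 kb before it, at 41.5, 11.2, 13.0 and 7.07 CPM over all cells. In macrophages its log2 ratios were −1.31 and 0.00, so the diaphragm did not share the quadriceps value. The other was 2010315B03Rik, 211 kb beyond Ccr2, which had ratios of 3.20 (2.63 to 3.91) and 4.26 (3.28 to 5.54) in macrophages and 2.39 (1.91 to 3.02) and 2.22 (1.41 to 3.60) in endothelial cells. It is the same gene that was most like Alad and Sp140 in level over the 12 groups. Alad and Sp140 were chosen for their genotype difference in these values, so a gene that differs the same way ranks high by construction. Whether 2010315B03Rik is linked to them was not tested.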

How the data were processed

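Mononuclear cells of 4 muscle libraries were measured by 10x 3′ RNA sequencing. The deposited matrices hold whole-number UMI counts per gene and cell barcode, which the authors obtained with Cell Ranger 6.1.2 on mm10, per the submitters' processing notes. Which annotation release, intron handling and strand setting they used is not given in the sources used here. No later normalization by the authors enters the values.

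A barcode passed with 500 UMIs or more, 300 genes or more and no more than 15% of UMIs from mitochondrial genes (31077 of 33554). The 2508 highest Scrublet doublet scores (scanpy 1.11.5) were removed, at 0.8% per 1000 barcodes of a library. UMIs were summed per library and gated class and given as CPM. The 95% intervals of ratios are exact conditional ones (Clopper-Pearson), and log2 ratios use a pseudocount of 5 CPM (Python 3.11.15, numpy 2.4.6, scipy 1.17.1, pandas 2.3.3). A gene was measured in a class from a mean of 20 CPM and 50 UMIs. The ratio script was tested on simulated data.

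The 4 genes, the marker and gene lists and the tests were chosen with earlier results of these data known. Genes named are the 4 in the 8 larger classes, measured list members, genes past 2-fold in both muscles of every large class, the 5 most correlated genes and measured neighbours within 1 Mb. Sp110, the genes next in order, the copies of the 4 genes, list members and neighbours under the minimum were named after their values were seen. Alternatives were other cell filters, no doublet removal, other gates, centring, means per cell, other pseudocounts and no filter on low values, with class-only values and macrophage splits added after seeing the data.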

Additional observations from a re-analysis of the deposited data

How the results depend on the processing

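Of 92 alternative values, 65 stayed at the reported value (ratios within its counting interval, counts of genes equal to it), 27 moved from it and no ratio changed direction. Those that stayed include counts of 0 genes, which have no direction, and Sp140 ratios judged against wide intervals (32.6 to 151 and 29.8 to 118). The 4 genes were chosen for their difference in these data, so the kept direction supports nothing. With a pseudocount of 5 CPM the ratios (quadriceps, then diaphragm) were 2.68 and 1.99 for Alad, 0.489 and 0.451 for Wdfy1, 7.26 and 8.78 for Sp140 in macrophages and 3.56 and 4.86 for Xlr in macrophages. With means of CPM per cell the Alad ratio was 3.97 in the quadriceps, and the Wdfy1 ratios were 0.509 and 0.429. Restricted to 1 class after the data were seen, the quadriceps Alad ratio was 2.43 in FAP/fibroblasts and 4.63 in endothelial cells, and the diaphragm ratio was 2.23 in macrophages and 4.46 in endothelial cells. The Wdfy1 ratios were then 0.325 and 0.313 in macrophages and 0.645 and 0.420 in FAP/fibroblasts. In the macrophage splits, also chosen after seeing the data, Sp140 was at 179 (31.7 to 7136) in quadriceps cells with no resident marker and at 219.5 (38.8 to 8726) in diaphragm cells with one, each resting on 1 mdx5cv UMI. Xlr was at 18.8 in quadriceps cells with no resident marker, 13.1 with a cell cycle UMI and 5.20 without one. In the diaphragm it was at 4.43 with a resident marker and 10.5 without. The count of genes at least 2-fold higher in both muscles of every large class, 0 among 3944 genes, was 3 (Ifi202b, Sp110 and Sp140) among 16444 with no filter on low values. The cause of these shifts was not tested. No paired analysis was run, because each group had 1 library and the ratios come from no test. For the same reason no library could be left out, and counts of 0 to 10 UMIs limit the Sp140 ratios.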
